A study of Mus musculus with 15 samples.

Results

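The pieces of mouse ileum compared here were split by the expression of Gata4, a gene whose activity along the small intestine marks a proximal identity. The sets were chosen by a measured value: a mouse was Gata4-high when its Gata4 level was 3 FPKM or more (fragments per kilobase of transcript, scaled to sequencing depth) and Gata4-low when it was under 3 FPKM. Of 15 mice, 7 were Gata4-high and 8 were Gata4-low. All were female C57BL/6 mice (C57BL/6JOlaHsd in the study's methods), with an age of 8 weeks in the labels, and each gave 1 library of total RNA from whole intestinal tissue, which the study's methods name as ileum. Every 2nd day the mice received by gavage either water (Control, 5 mice) or 200 mg/kg of proanthocyanidins (PAC, plant polyphenols built of catechin-type units) from grape, of low molecular weight (Low PAC, 5 mice) or high molecular weight (High PAC, 5 mice). These sizes are the labels' terms, and the study's methods call the second fraction one of medium mean degree of polymerisation. The Gata4-high set held Control mice 1, 3, 4 and 5, Low PAC mice 4 and 5 and High PAC mouse 2. The Gata4-low set held Control mouse 2, Low PAC mice 1, 2 and 3 and High PAC mice 1, 3, 4 and 5. Set and treatment were thus unbalanced, and treatment was a covariate in every comparison unless stated. The distance of each piece from the stomach or the caecum is not given in the sources used here, and each mouse is represented by a single piece of the gut wall.

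The absorptive cells of the small intestine change their gene program from the duodenum to the ileum. Gata4 encodes a zinc finger transcription factor that binds GATA motifs, is made in the epithelium of the duodenum and jejunum and wanes towards the distal ileum, whereas Gata6 is made along the whole length. Proximal enterocytes digest and absorb lactose, fat, iron, calcium and folate, and the distal ileum takes up bile acids and vitamin B12. Hox genes, which pattern the body axis, are also graded along the gut, and the more 5′ genes of a cluster are used further down.

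Promoter sequences of 3 brush border enzymes with large fold changes between the sets are shown because Gata4 is a DNA-binding factor: Lct (lactase), Enpp7 (alkaline sphingomyelinase) and Asah2 (neutral ceramidase). Each run is the 250 bases before the transcript start in RefSeq (GRCm38), 5′ to 3′ on the gene's strand, and capitals mark AGATAA or TGATAA or their reverse complements TTATCT and TTATCA. The Lct window is chr1:128328319-128328568 on the minus strand, the Enpp7 window is chr11:118987931-118988180 on the plus strand, and the Asah2 window is chr19:32103141-32103390 on the minus strand.
Lct: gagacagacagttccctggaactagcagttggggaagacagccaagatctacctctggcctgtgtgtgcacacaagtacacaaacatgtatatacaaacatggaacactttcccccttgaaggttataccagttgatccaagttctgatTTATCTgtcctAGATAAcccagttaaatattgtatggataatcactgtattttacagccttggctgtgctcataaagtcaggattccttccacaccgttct
Enpp7: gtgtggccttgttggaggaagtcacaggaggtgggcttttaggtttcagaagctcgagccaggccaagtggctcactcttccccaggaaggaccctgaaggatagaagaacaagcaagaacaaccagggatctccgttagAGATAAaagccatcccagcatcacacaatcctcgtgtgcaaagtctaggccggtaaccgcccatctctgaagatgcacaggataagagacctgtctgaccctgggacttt
Asah2: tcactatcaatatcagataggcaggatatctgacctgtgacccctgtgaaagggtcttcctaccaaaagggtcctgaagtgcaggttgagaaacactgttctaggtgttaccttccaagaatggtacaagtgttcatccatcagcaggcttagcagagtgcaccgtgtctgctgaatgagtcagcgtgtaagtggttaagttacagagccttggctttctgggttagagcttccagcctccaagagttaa

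The Lct window holds 2 matches, the Enpp7 window holds 1 and the Asah2 window holds 0. A match was present in 17.0% of the promoters of all 27025 genes in the RefSeq table and in 9.86% of those of the 11226 tested genes that could be matched. Among genes with an unadjusted p under 0.05 the share was 15.5% (48 of 309) for those higher in Gata4-high mice and 13.01% (19 of 146) for those lower. These shares are descriptions of letters in a window.

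Gata4 (chr14:63198914-63271712, GRCm38) was read at 4.58, 4.04, 12.46 and 12.67 FPKM in Control mice 1, 3, 4 and 5, at 6.23 and 4.19 FPKM in Low PAC mice 4 and 5, and at 4.23 FPKM in High PAC mouse 2. In the Gata4-low set it was 1.69 FPKM in Control mouse 2, 0.48, 0.91 and 1.97 FPKM in Low PAC mice 1, 2 and 3, and 0.58, 0.75, 0.72 and 0.39 FPKM in High PAC mice 1, 3, 4 and 5. These values chose the sets and are given without a test. The member nearest to the cutoff inside the high set was at 4.04 FPKM and the nearest outside it was at 1.97 FPKM. Control mice 4 and 5 stood well above the other 5 Gata4-high mice, and Low PAC mouse 3 and Control mouse 2 stood above the other 6 Gata4-low mice.

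**Figure D1:**
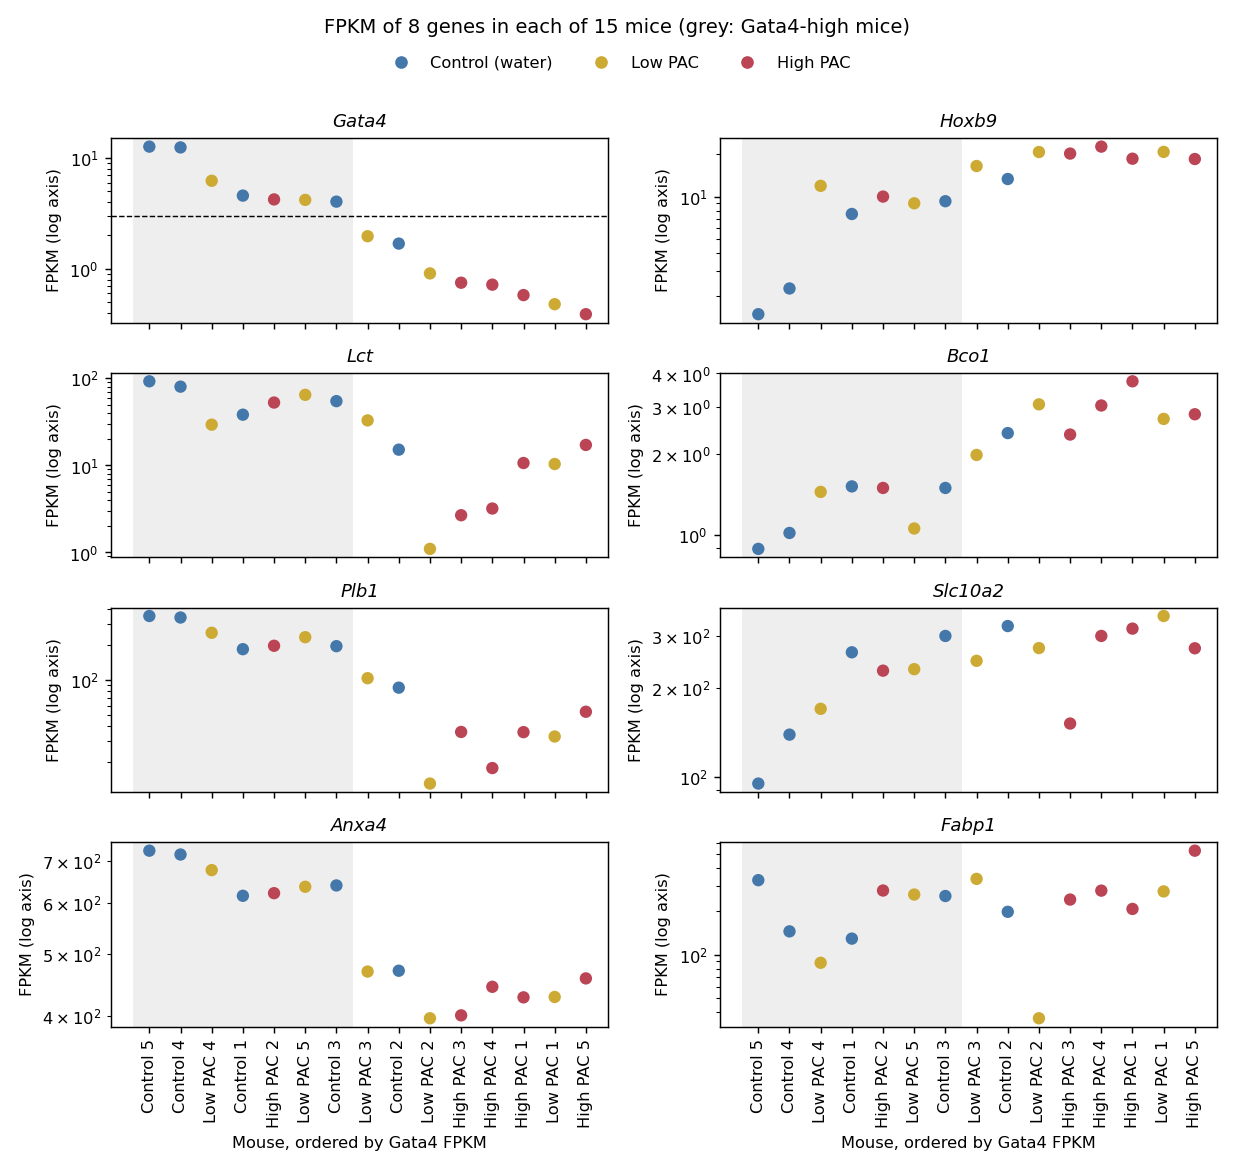
FPKM (log axis) of 8 genes in each of 15 mice, 1 point per mouse, ordered from left to right by falling Gata4 FPKM and coloured by treatment; grey marks the 7 Gata4-high mice and the dashed line in the Gata4 panel is the cutoff of 3 FPKM. Plb1 and Anxa4 lie higher and Hoxb9 and Bco1 lie lower in all 7 Gata4-high mice than in any Gata4-low mouse, the ranges of Lct overlap narrowly, and those of Slc10a2 and Fabp1 overlap.

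Libraries held 15963086 to 17903886 expected counts, with medians of 17507517 in the Gata4-high and 17608723.5 in the Gata4-low set, and 14385 genes other than Gata4 passed the filter on low counts. High PAC mouse 3 stood apart on the first principal component of 13370 genes, with a score of 195 against -50.4 to 42.9 in the other 14 mice. Markers of the ileum were high in all 15 mice, with Fabp6, the ileal bile acid binding protein, between 4196 and 10620 FPKM. The 6 pancreatic and 5 gastric or Brunner's gland markers were near 0, with summed levels of at most 0.51 and 0.47 FPKM. No piece lacked the ileal marker.

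Across all genes, how many transcripts differed between the sets with treatment taken into account depended on the test. In these bulk samples fewer cells of a type and less RNA per cell cannot be told apart. In edgeR's quasi-likelihood test with Benjamini-Hochberg adjustment, 4 of 14385 genes (0.0278%) rose in Gata4-high mice at an adjusted p under 0.05 and 0 fell (0.0%). DESeq2 on the same terms called 36 higher and 3 lower, the 4 among them. At an unadjusted p under 0.05 there were 378 genes higher (2.63%) and 199 lower (1.38%), together 577 (4.01%), so counts by an unadjusted p are given here as descriptions and not as calls. With upper-quartile in place of TMM scaling that split became 293 higher and 308 lower, and without High PAC mouse 3 it became 479 higher and 447 lower. No fold change differed by treatment at an adjusted p under 0.05 in edgeR's interaction test, in which 158 genes had an unadjusted p under 0.05 (DESeq2 was not run on the interaction).

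The 4 genes that rose were Car13, Anxa4, H2-Q1 and Gm11127. Car13 (chr3:14641727-14663002) encodes a cytosolic carbonic anhydrase, an enzyme that hydrates carbon dioxide. Its lowest, median and highest levels were 58.5, 64.8 and 73.8 FPKM in the 7 Gata4-high mice and 35.8, 38.7 and 47.1 FPKM in the 8 Gata4-low mice. The ranges did not overlap, and the log2 fold change (Gata4-high less Gata4-low mice, adjusted for treatment) was 0.66 ± 0.08 (SE), an adjusted p of 0.00676 in edgeR's test.

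Anxa4 (chr6:86736840-86793634) encodes an annexin, a protein that binds membranes when calcium is present. It was read at 617, 640.1 and 725 FPKM (lowest, median, highest) in Gata4-high and at 397, 436 and 471 FPKM in Gata4-low mice, a log2 fold change of 0.57 ± 0.07 (SE) with an edgeR adjusted p of 0.00676. Within treatments the Anxa4 difference was 0.51 in Control, 0.61 in Low PAC and 0.53 in High PAC mice on the log2(FPKM + 0.1) scale. The within-treatment values rest on 4 against 1 Control mice, 2 against 3 Low PAC mice and 1 against 4 High PAC mice.

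H2-Q1 (chr17:35320525-35328142) and the gene model Gm11127 (chr17:36055816-36058371, named after its values were seen) belong to the class I histocompatibility genes of chromosome 17. H2-Q1 ranged from 92.3 to 120 FPKM in Gata4-high and from 68.5 to 92.1 FPKM in Gata4-low mice, with a log2 fold change of 0.54 ± 0.07 (SE) and an edgeR adjusted p of 0.00676. Gm11127 ranged from 33.0 to 43.6 against 17.7 to 29.2 FPKM, with a log2 fold change of 0.75 ± 0.12 (SE) and an edgeR adjusted p of 0.0453. Class I genes are near-identical copies that share reads, so which copy gave these reads is uncertain. The related H2-Q2 was at 98.0 to 130.02 FPKM against 56.8 to 106 FPKM, with a log2 fold change of 0.51 and an edgeR adjusted p of 0.345.

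The calls rest on few mice, because without High PAC mouse 2, the only Gata4-high mouse of its treatment, 0 genes passed (519 at an unadjusted p under 0.05), and without Control mouse 2, the only Gata4-low Control mouse, 1 gene passed (Car13). Leaving out Low PAC mouse 3 gave 16 genes, and leaving out High PAC mouse 3 gave 4, of which 3 were among the 4 above.

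FPKM ranges that did not overlap between the sets were found for 47 genes higher (0.327%) and 11 genes lower (0.0765%) in Gata4-high mice, together 58 (0.403%). Within each of the 3 treatment groups, 101 genes (0.702%) were higher and 52 (0.361%) were lower in every Gata4-high than in every Gata4-low mouse, together 153 (1.06%). In edgeR's test none of the other genes named from here on passed the adjusted threshold. DESeq2 on the same terms did call 10 of them: Asah2 (adjusted p 0.000357), Dnase1 (0.00215), Npl (0.00302), Fam151a (0.0229), Nr1i3 (0.0171), Cyp2b10 (0.0429), Soat2 (0.0429), Ugt2a3 (6.2e-05), Dnpep (3.42e-05) and Bco1 (0.000467, lower). Of the genes named from here on, all but Lct, Fabp1, Slc10a2, Fabp6, Fgf15, Gata5, Gata6, Cdx2, Hnf4a and the genes the study itself had named were picked out after their values were seen.

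Among enterocyte genes known to be higher in duodenum or jejunum, 29 of 30 could be tested. At an unadjusted p under 0.05, 9 of them were higher and 3 were lower in Gata4-high mice (adjusted p under 0.05: 0 and 0), and the median log2 fold change was 0.22 against 0.0076 over all genes tested. Over all genes tested 2.63% were higher and 1.38% lower at that unadjusted p. The log2 fold change was above 0 in 22 of the 29, against 52.9% of all genes tested. Leaving out 1 mouse at a time, 5 to 10 were higher and 2 to 3 lower. The 5 came without Control mouse 2, the counts without High PAC mouse 3 were 10 and 3, and a Gata4 cutoff of 5 FPKM gave 1 and 1. Control mice alone gave 10 and 2, Low PAC mice alone 2 and 2, and Low PAC with High PAC mice 3 and 3. The largest difference was in Lct, whose product lactase splits milk sugar and is the textbook marker of the jejunum. Lct was at 38.3, 54.8, 80.5 and 92.7 FPKM in Control mice 1, 3, 4 and 5, at 29.4 and 64.8 FPKM in Low PAC mice 4 and 5, and at 52.8 FPKM in High PAC mouse 2. In the Gata4-low mice it was 15.2 FPKM in Control mouse 2, 10.4, 1.10 and 33.0 FPKM in Low PAC mice 1, 2 and 3, and 10.7, 2.68, 3.20 and 17.2 FPKM in High PAC mice 1, 3, 4 and 5. Only Low PAC mouse 3, the Gata4-low mouse nearest the cutoff, reached above the lowest Gata4-high mouse. The log2 fold change of Lct was 2.11 ± 0.59 (SE), with an edgeR adjusted p of 0.472 and an unadjusted p of 0.008 in a two-sided exact permutation test within treatments, whose 250 arrangements allow no p below 0.004.

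Ace, a brush border peptidase, was the one member of that list with higher, non-overlapping ranges, at 114 to 240 FPKM against 41.0 to 106 FPKM, a log2 fold change of 0.76 and an edgeR adjusted p of 0.458. The apolipoproteins Apoa4 and Apoc3, which coat the fat particles that enterocytes export, had log2 fold changes of 0.66 and 0.67, and the peptide transporter Slc15a1 had 0.57. Khk, the kinase that opens fructose breakdown, lay between 65.2 and 69.5 FPKM in all 7 Gata4-high mice and between 41.9 and 66.9 FPKM in the Gata4-low mice, with a log2 fold change of 0.34. Fabp1, a fatty acid binding protein of the proximal gut, was at 87.9 to 329 FPKM in Gata4-high and 36.2 to 528 FPKM in Gata4-low mice, and its log2 fold change of -0.13 ± 0.45 (SE) changed sign with voom (0.012), in Control mice alone (0.13), at a cutoff of 1 FPKM (0.32) and on leaving out single mice (-0.36 to 0.10). The proximal list was thus not uniformly higher.

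Its 3 lower members were Bco1, Slc40a1 and S100g. Bco1, which cleaves beta-carotene to retinal, was at 0.89 to 1.52 FPKM in Gata4-high and 1.99 to 3.74 FPKM in Gata4-low mice, with no overlap, a log2 fold change of -0.997 ± 0.19 (SE) and an edgeR adjusted p of 0.115. The 3 within-treatment differences of Bco1 were -0.94, -0.98 and -0.93 in Control, Low PAC and High PAC mice. Slc40a1, the iron exporter ferroportin, was at 10.5 to 15.8 FPKM against 12.3 to 34.7 FPKM, a log2 fold change of -0.84. S100g, a calcium-binding protein of the calcium-absorbing enterocyte, had a log2 fold change of -1.08, which was -0.55 without High PAC mouse 2 and -2.03 with no treatment covariate (edgeR adjusted p 0.0474). The difference was 0.25 within Control, -1.01 within Low PAC and -2.51 within High PAC mice. Its unadjusted interaction p of 0.0203 in edgeR's test did not pass adjustment over all genes. Control mouse 2 had 8.03 FPKM of S100g, where the other 7 Gata4-low mice had 36.6 to 140.4 FPKM.

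**Figure D2:**
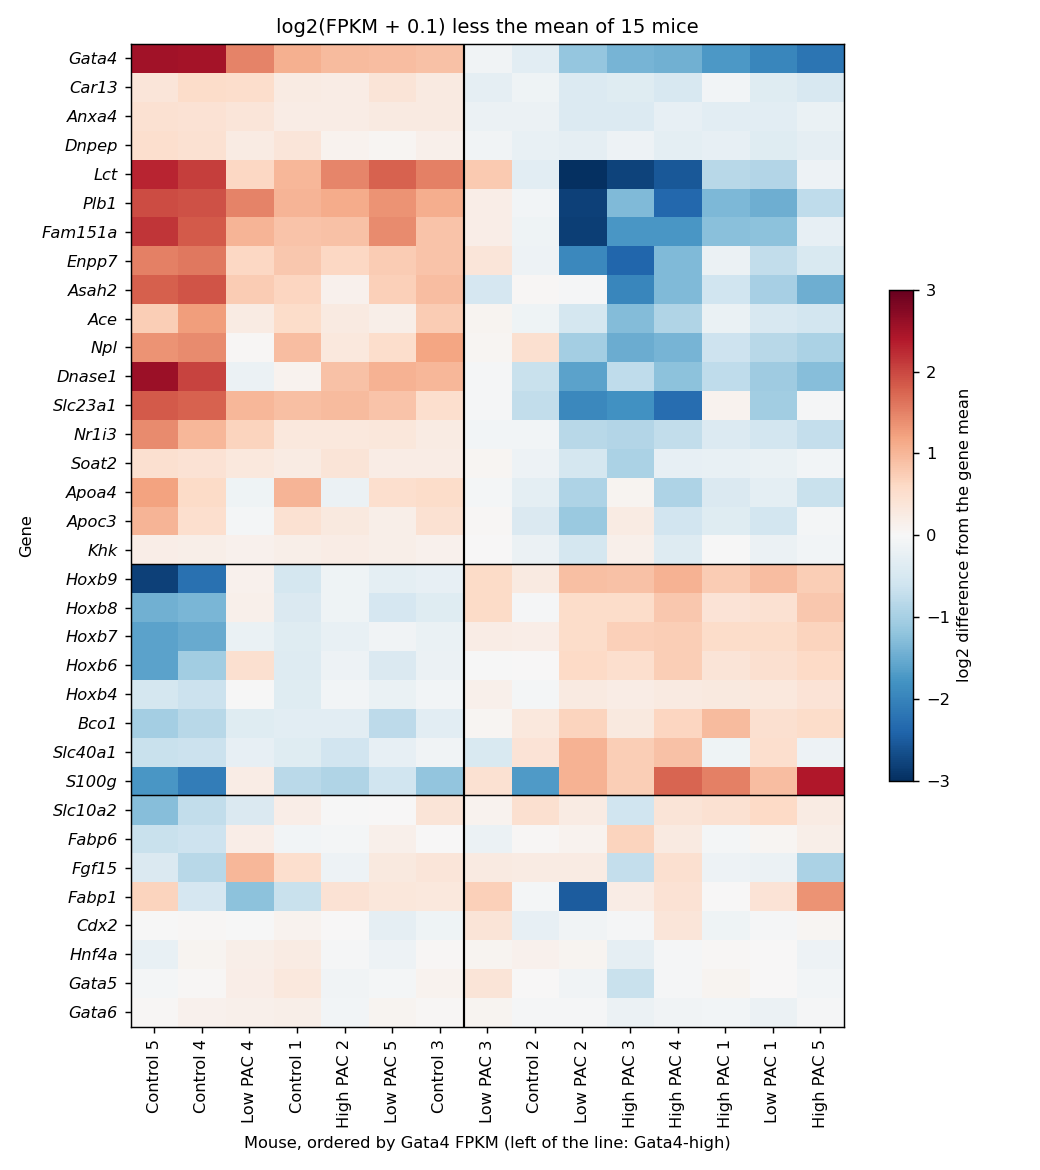
Difference of log2(FPKM + 0.1) from each gene's mean over 15 mice, for 34 genes (rows) and 15 mice (columns, ordered by Gata4 FPKM; the vertical line separates Gata4-high from Gata4-low mice). The upper block (Gata4 to Khk) is mostly red on the left, the middle block (Hoxb9 to S100g) is mostly blue there, and the lower block (Slc10a2 to Gata6) shows no such split, with Control mice 4 and 5 the most extreme columns for Gata4 and Hoxb9.

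Lipid digestion was described by several lists. The lists share members, so their counts are not separate. Apoa4 and Apoc3 are in the proximal and chylomicron lists and Dgat1 is in the chylomicron and retinoid lists. Lct and Khk are in the proximal and sugar lists, and Ace is in the proximal and peptidase lists. Over all genes tested 2.63% were higher and 1.38% lower at an unadjusted p under 0.05. Of the 16 chylomicron and fat digestion genes tested, 7 were higher and 0 lower at an unadjusted p under 0.05, with a median log2 fold change of 0.22, and without Control mouse 2 the 7 became 4. Plb1, a brush border phospholipase, was at 182 to 351 FPKM in Gata4-high mice and at 12.96 to 103 FPKM in Gata4-low mice. The log2 fold change of Plb1 was 1.97 ± 0.44 (SE), with an edgeR adjusted p of 0.22. Dgat1, which makes triglyceride, was at 159.1 to 191 FPKM against 114 to 158.8 FPKM, a narrow gap between the sets. Of 12 sphingolipid genes, 3 were higher and 0 lower: Enpp7, Asah2 and Sgpl1.

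Enpp7 and Asah2 act in sequence on dietary sphingomyelin, and both were higher in every Gata4-high mouse than in any Gata4-low mouse. Enpp7 had a lowest, median and highest level of 253, 291 and 492 FPKM in Gata4-high and 31.6, 109.8 and 213 FPKM in Gata4-low mice, a log2 fold change of 1.33 ± 0.36 (SE) with an edgeR adjusted p of 0.445. Asah2 had 45.9, 71.6 and 155 FPKM against 10.8, 24.5 and 43.6 FPKM, a log2 fold change of 1.29 ± 0.25 (SE) with an edgeR adjusted p of 0.126. Sgpl1, the lyase that ends sphingosine breakdown, had a log2 fold change of 0.27. In sterol handling, 2 of 14 genes were higher and 0 lower, but leaving out 1 mouse gave 1 higher (without Control mouse 2, Low PAC mouse 2 or 5 or High PAC mouse 2) or 2 higher and 2 lower (without High PAC mouse 3). Soat2, the cholesterol esterifying enzyme of the enterocyte, was at 37.2 to 44.6 FPKM against 16.4 to 33.4 FPKM. Of 25 fatty acid genes 1, Fabp2, had an unadjusted p under 0.05, with a log2 fold change of 0.46. This was 4% of the list, against 4.01% of all genes tested. The count was 2 higher without Low PAC mouse 4 or High PAC mouse 3, and without Low PAC mouse 2 1 was lower.

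Transport and detoxification genes were also tallied by an unadjusted p under 0.05, which 2.63% of all genes tested met as higher and 1.38% as lower. Sugar genes had 4 of 16 higher and 0 lower (median log2 fold change 0.24), among them Lct and the sodium-glucose transporter family member Slc5a4b at 1.32. Amino acid transporters had 4 of 18 higher, among them Slc7a8 at 0.63, and 1 lower, and without High PAC mouse 2 the 4 became 2. The log2 fold changes in this list ran from -4.25 to 0.636. Nucleoside and nucleic acid genes had 4 of 16 higher and 0 lower, among them the nucleoside transporter Slc28a1 at 1.39 and the nuclease Dnase1 at 1.79. Mineral and vitamin genes had 1 of 19 higher and 2 lower. The 2 became 1 without Low PAC mouse 2 or 5 or High PAC mouse 2. The 2 became 3 without Control mouse 1 or 3, Low PAC mouse 3 or High PAC mouse 3. The higher one was Slc23a1, a sodium-dependent vitamin C transporter, at 2.62 to 6.70 FPKM in Gata4-high and 0.29 to 1.97 FPKM in Gata4-low mice, with a log2 fold change of 1.88 ± 0.44 (SE) and an edgeR adjusted p of 0.266.

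Among 14 retinoid genes 5 were higher and 1, Bco1, was lower, and without Control mouse 2 the 5 became 2. Rdh7, a retinol dehydrogenase family member, had a log2 fold change of 0.85. Xenobiotic genes had 7 of 27 higher and 0 lower. The glucuronosyltransferase Ugt2a3 was at 2.91 to 11.98 FPKM against 1.10 to 3.07 FPKM, where only Control mouse 1 and Control mouse 2 overlapped, with a log2 fold change of 1.69 ± 0.29 (SE) and an edgeR adjusted p of 0.0738. The cytochrome Cyp2b10 had a log2 fold change of 1.99 at 0.76 to 5.98 FPKM against 0.10 to 0.79 FPKM. Peptidases had 1 of 12 (8.33%) higher, which was Ace, against 2.63% of all genes tested. The aminopeptidase Dnpep, in no list, came closest to the threshold, at 58.7 to 80.0 FPKM against 43.6 to 51.9 FPKM, a log2 fold change of 0.44 and an edgeR adjusted p of 0.0598.

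**Figure D3:**
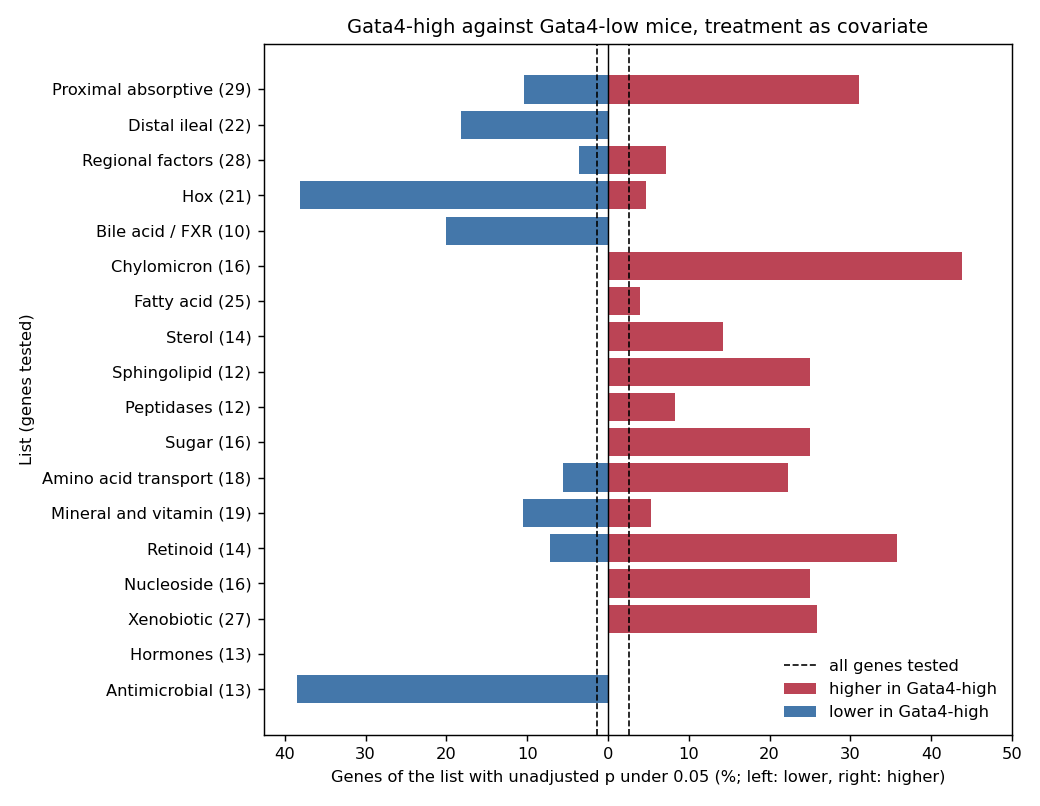
Share (%) of the tested genes of 18 lists with an unadjusted edgeR p under 0.05, higher (right, red) or lower (left, blue) in Gata4-high mice; dashed lines mark the shares over all genes tested, 2.63% higher and 1.38% lower. Chylomicron genes reach 43.8% on the right, and in this edgeR test no list holds a gene at an adjusted p under 0.05.

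Distal markers were tallied in the same way, beside 2.63% higher and 1.38% lower over all genes tested. Of 22 genes known to be higher in the distal ileum, 0 were higher and 4 were lower in Gata4-high mice at an unadjusted p under 0.05 (adjusted: 0 and 0), with a median log2 fold change of -0.09. Leaving out 1 mouse at a time, 3 to 5 were lower, with 5 only without High PAC mouse 3. A Gata4 cutoff of 1 FPKM gave 1 higher and 1 lower and a cutoff of 5 FPKM gave 0 and 7. Control mice alone gave 0 and 0, Low PAC mice alone gave 2 and 5, and Gata4 as a continuous measure or the smooth muscle score in the fit gave 0 and 6. The 4 were Hoxb6, Hoxb7, Hoxb8 and Hoxb9, neighbours in the Hoxb cluster on chromosome 11. Of the 29 Hox genes that the tables list, 21 could be tested, of which 8 were lower (Hoxb3 to Hoxb9 and Hoxc9) and 1, Hoxa3, was higher. Without High PAC mouse 2 the counts were 4 lower and 0 higher, and without Control mouse 2 there were 6 lower. The higher count was also 0 without Control mouse 4, Low PAC mouse 1, 2, 4 or 5 or High PAC mouse 3.

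Hoxb9 (chr11:96271330-96276595), the most 5′ of these, was read at 7.57, 9.32, 2.25 and 1.48 FPKM in Control mice 1, 3, 4 and 5, at 11.97 and 9.01 FPKM in Low PAC mice 4 and 5, and at 10.1 FPKM in High PAC mouse 2. In the Gata4-low set it was 13.4 FPKM in Control mouse 2, 20.8, 20.8 and 16.5 FPKM in Low PAC mice 1, 2 and 3, and 18.6, 20.2, 22.7 and 18.5 FPKM in High PAC mice 1, 3, 4 and 5. The ranges of the sets did not overlap. Control mice 5 and 4 were lowest of all, whereas Low PAC mouse 4, with the 3rd highest Gata4, had the highest Hoxb9 of the Gata4-high set. The log2 fold change of Hoxb9 was -1.05 ± 0.33 (SE), with an edgeR adjusted p of 0.68.

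Hoxb7 also did not overlap, at 2.65 to 7.63 FPKM against 9.58 to 13.9 FPKM, with a log2 fold change of -0.80 and an edgeR adjusted p of 0.479. The log2 fold changes of Hoxb8, Hoxb6, Hoxb5, Hoxb4 and Hoxb3 were -0.74, -0.52, -0.36, -0.36 and -0.47, and that of Hoxc9 was -0.52. Hoxb3 overlaps Hoxb4 and Hoxb5 in the annotation, and whether counting used the strand is not given in the sources used here, so reads of these 3 genes may be shared. With a smooth muscle marker score added to edgeR's fit, Hoxb7, Hoxb8, Hoxb9 and Bco1 were lower and Plb1 (adjusted p 0.0448), Fam151a (0.0254), Asah2 (0.0105), Dnase1 (0.0254), Npl (0.0259), Nr1i3, Ugt2a3 and Dnpep were higher at an adjusted p under 0.05, beside the 4 genes called without it.

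Bile acid genes, which define ileal function, overlapped between the sets. Slc10a2, the sodium-dependent bile acid importer, was at 94.8, 229 and 299.7 FPKM (lowest, median, highest) in Gata4-high and at 151, 286 and 350.1 FPKM in Gata4-low mice, a log2 fold change of -0.47 ± 0.27 (SE) with an edgeR adjusted p of 1. Control mice 5 and 4 had the lowest levels of all 15 mice, 94.8 and 139 FPKM, followed by High PAC mouse 3 at 151 FPKM. Fabp6 had a log2 fold change of -0.10 ± 0.17 (SE), Slc51a, part of the basolateral bile acid exporter, had -0.18 ± 0.13, and Fgf15, the hormone that bile acids induce in the ileum, had 0.20 ± 0.28. Of 10 bile acid genes tested 2 were lower and 0 higher at an unadjusted p under 0.05, against 1.38% and 2.63% of all genes. The count was 1 lower without Low PAC mouse 2 or High PAC mouse 2 and 3 lower without High PAC mouse 3. One of the 2 was Nr1h4, the bile acid receptor FXR, at 55.2 to 94.5 FPKM against 84.9 to 120 FPKM.

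Among 28 transcription factors and cofactors of regional identity, 2 were higher and 1, Nr1h4, was lower at an unadjusted p under 0.05. Over all genes tested 2.63% were higher and 1.38% lower, so counts this small say little about the members. Leaving out 1 mouse at a time gave 1 to 3 higher and 1 to 2 lower, with 1 higher and 2 lower without Control mouse 2, 1 and 1 without Low PAC mouse 1, and 2 and 2 without Control mouse 4 or Low PAC mouse 5. Nr1i3, the xenobiotic receptor CAR, was at 2.66 to 6.13 FPKM in Gata4-high and 1.17 to 2.11 FPKM in Gata4-low mice, with a log2 fold change of 1.00 ± 0.20 (SE) and an edgeR adjusted p of 0.131. Zfpm1, a cofactor of GATA proteins, had a log2 fold change of 0.43. The other GATA factors of the gut had overlapping ranges. Gata5 was at 44.8 to 59.8 FPKM against 30.4 to 62.8 FPKM and Gata6 at 26.7 to 31.6 FPKM against 24.8 to 29.7 FPKM, with log2 fold changes of 0.03 ± 0.13 and 0.13 ± 0.06 (SE). Cdx2 and Hnf4a, general factors of the intestinal epithelium, had log2 fold changes of -0.05 ± 0.12 and -0.02 ± 0.11 (SE).

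The label of a proximal identity was matched in part, on lists chosen with earlier results of these data known. The study had named Ace, Apoa4 and S100g of the proximal list and Hoxb7 of the distal list on these mice. The tallies are thus not independent evidence of position. Of the proximal list 22 of 29 log2 fold changes were above 0 and of the distal list 15 of 22 were below 0, both in the direction known for a more proximal piece, where 52.9% of all genes tested were above 0. The medians were 0.22 and -0.09, and the 4 distal members under an unadjusted p of 0.05 were all Hoxb neighbours. Members in the other direction included Bco1, Slc40a1, S100g and Fabp1 of the proximal list and Fgf15 of the distal list. The mice are accordingly named by Gata4 level and not by position.

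**Figure D4:**
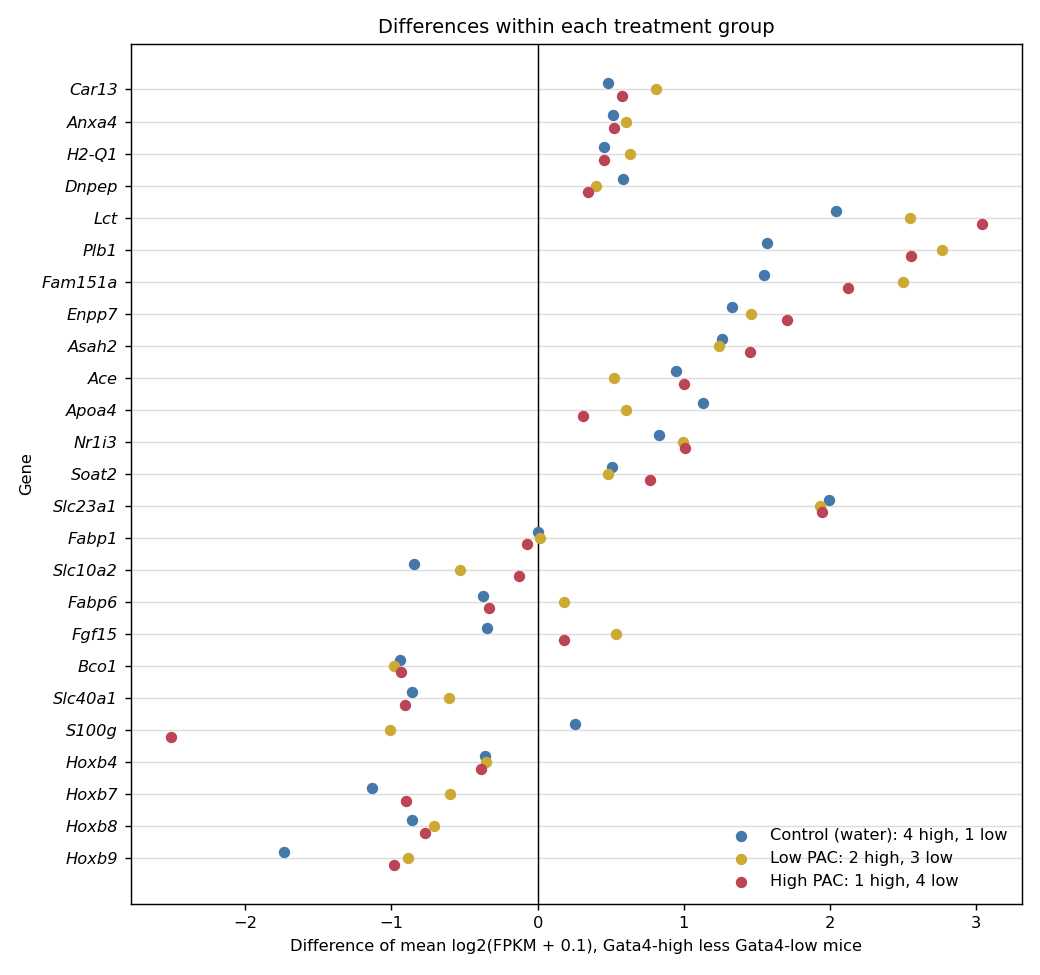
Difference of mean log2(FPKM + 0.1) between Gata4-high and Gata4-low mice within each treatment, 1 point per gene and treatment, for 25 genes; points right of the line are higher in Gata4-high mice. Lct differs by 2.04, 2.55 and 3.04 and Bco1 by -0.94, -0.98 and -0.93 in Control, Low PAC and High PAC mice, while S100g, Fabp1, Fabp6 and Fgf15 have points on both sides of 0.

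The study itself had named 26 genes on these same mice, of which 25 besides Gata4 were tested, and they are not independent evidence of a direction. At an unadjusted p under 0.05, 8 were higher (Plb1, Fam151a, Dnase1, Enpp7, Asah2, Npl, Ace and Apoa4) and 4 were lower (Reg3g, S100g, Hoxb7 and Hoxb5), with a median log2 fold change of 0.08, and without High PAC mouse 2 the 4 lower became 2. Over all genes tested 2.63% were higher and 1.38% lower. Fam151a, a gene of little known function, was at 39.7 to 96.2 FPKM in Gata4-high and 2.99 to 25.0 FPKM in Gata4-low mice, a log2 fold change of 1.93 ± 0.39 (SE) with an edgeR adjusted p of 0.14. Npl, a lyase of sialic acid breakdown, had a log2 fold change of 0.98 and an edgeR adjusted p of 0.126. The 13 others, Barx2, Slc28a2, Nos2, Sh3bgr, Tshr, Igfbp6, B3galt2, Rspo1, Xlr3b, Hbb-bt, Spsb4, Msln and Cartpt, had unadjusted p values of 0.127 or more.

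Levels also varied within the sets, shown for 4 genes picked after their values were seen. Control mice 4 and 5, at 12.46 and 12.67 FPKM of Gata4, had the highest Plb1 (340.3 and 351 FPKM), Fam151a (78.6 and 96.2 FPKM), Enpp7 (492 and 470.3 FPKM) and Asah2 (155 and 147 FPKM) of all mice. In the Gata4-low set Low PAC mouse 3 and Control mouse 2 had the highest Plb1 (103 and 85.6 FPKM), Fam151a (25.0 and 20.0 FPKM) and Enpp7 (213 and 149.6 FPKM), but for Asah2 (29.7 and 43.6 FPKM) Low PAC mouse 2 at 41.3 FPKM lay between them. Low PAC mouse 2 was lowest of all 15 for Lct, Plb1 and Fam151a, at 1.10, 12.96 and 2.99 FPKM, although 5 mice had less Gata4.

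Markers of other cell types also differed between pieces. All 8 smooth muscle markers had a log2 fold change below 0 (median -0.25, 0 at an unadjusted p under 0.05), and their summed FPKM ranged from 271 to 1104 in Gata4-high and from 692 to 1043 in Gata4-low mice. Control mice 3 and 1 and Low PAC mouse 4, all Gata4-high, had the lowest sums, 271, 312 and 570.1 FPKM. Below 0 were also 5 of 5 fibroblast markers (median -0.185), 6 of 9 neuron and glia markers (median -0.182) and 4 of 4 tuft cell markers. Of the neuron and glia markers 1 was lower at an unadjusted p under 0.05. Above 0 were 6 of 6 cycling cell and 5 of 6 mesothelium markers. All 11 B cell markers had a log2 fold change above 0 (median 0.60, 0 at an unadjusted p under 0.05), with sums of 9.62 to 212 FPKM against 11.9 to 321 FPKM. The 7 mice with B cell sums of 98 FPKM or more were spread over both sets, 4 Gata4-high and 3 Gata4-low.

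All 5 adipocyte markers lay above 0 (median 0.75), at 152 to 714 against 84.6 to 831 FPKM in sum. All 7 goblet cell and all 7 Paneth cell markers lay below 0 (medians -0.20 and -0.17), with 2 goblet cell genes at an unadjusted p under 0.05, a count that ran from 0 (without Control mouse 2 or Low PAC mouse 4) to 3 (without High PAC mouse 3). The goblet sums were 9871 to 11891 against 10416 to 18513 FPKM, the highest in High PAC mouse 3. The 7 enterocyte markers had a median log2 fold change of 0.02 and sums of 7721 to 9464 FPKM in Gata4-high and 5726 to 8584 FPKM in Gata4-low mice. The part of smooth muscle and goblet cell content in the differences between the sets was not tested beyond the fit with the smooth muscle score. With the B cell score in the fit, the same 4 genes passed the adjusted threshold.

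**Figure D5:**
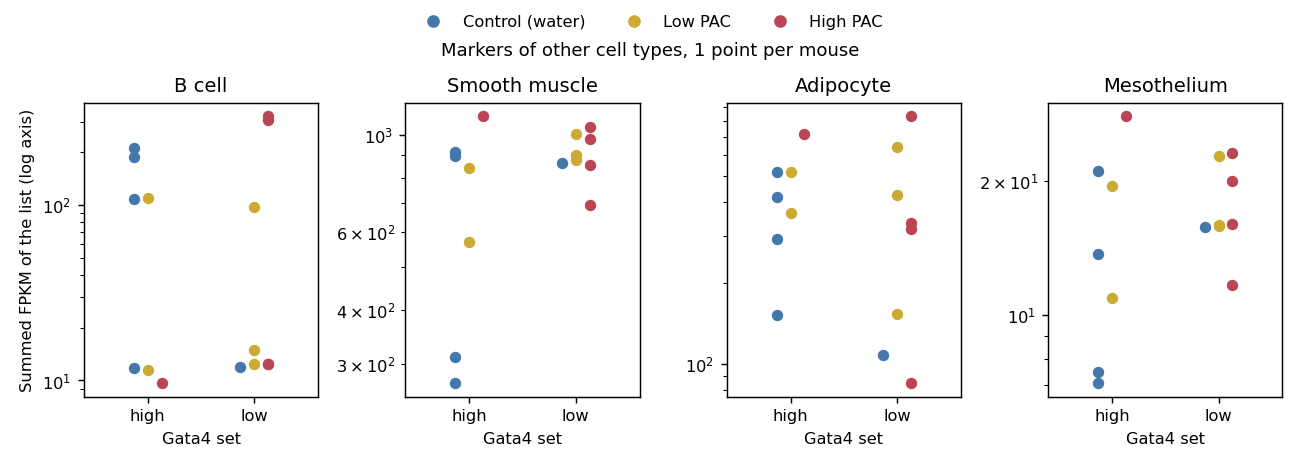
Summed FPKM (log axis) of the marker genes of 4 other cell types in Gata4-high and Gata4-low mice, 1 point per mouse, coloured by treatment. The ranges overlap for all 4 cell types, and the lowest smooth muscle sums, 271 and 312 FPKM, are of Gata4-high Control mice.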

How the data were processed

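RNA from 15 mice was sequenced by the authors' provider. Per the study's methods reads were cleaned with SOAPnuke and mapped with Bowtie2 to mm10, whereas the submitters' processing notes name HISAT and DESeq2, and the counting tool is not given in the sources used here. The deposited tables give, per gene and mouse, an expected count (estimated, 88.6 to 89.5% whole numbers) and FPKM normalised by the authors to transcript length and depth. Mice were split by Gata4 FPKM, and treatment came from the labels.

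After rounding, the expected counts went into edgeR 4.0.16 (quasi-likelihood, TMM, filterByExpr, treatment and set as terms, 14385 genes). Gata4, which defined the sets, was removed before adjustment. FPKM served for levels and, as log2(FPKM + 0.1), for within-treatment differences and exact permutation tests. DESeq2 1.42.0, limma 3.58.1 and other filters, cutoffs and subsets were alternatives. Scripts were tested on simulated data.

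The sets and the 40 gene lists were chosen with earlier results of these data known. The rule for named genes gave Gata4, Lct, Fabp1, Slc10a2, Fabp6, Fgf15, Gata5, Gata6, Cdx2, Hnf4a and all genes the study named. It also took genes past the adjusted threshold: position genes, up to 5 per other list and the 12 largest changes each way without predicted names. In edgeR's test only 4 genes passed, none of them in a list. All others were picked by value. Coordinates come from RefSeq (GRCm38.p6), which matched 17716 gene IDs.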

Additional observations from a re-analysis of the deposited data

Results flagged for a closer look

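In 152 gene and set combinations the highest or lowest mouse was tested for a gap that is large for the range of its set, and 9 passed Dixon's 95% criterion, where chance alone gives about 1 in 20. In the Gata4-low set Low PAC mouse 2 lay far above the others for Slc6a14, an amino acid transporter, at 13.12 FPKM (next 0.48), for Saa1 at 165.4 FPKM (next 40.1) and for Fut2 at 6.78 FPKM (next 2.84). High PAC mouse 3 was far above the others for Fabp6 at 10620 FPKM (next 8047) and for the haemoglobin gene Hbb-bt at 11.93 FPKM (next 4.30), and far below them for Xdh at 29.09 FPKM (next 53.2). Low PAC mouse 3 had the highest Dnase1 of the Gata4-low mice at 5.85 FPKM (next 3.74), and Control mouse 2 the highest Ugt2a3 at 3.07 FPKM (next 2.02). In the Gata4-high set Control mouse 1 had an isolated low H2-Q1 of 92.31 FPKM (next 112).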

How the results depend on the processing

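How many genes passed depended on the test, the cutoff, the terms of the fit, the subset of mice and single mice. Of the 4 genes higher and 0 lower at an adjusted p under 0.05, DESeq2 gave 36 and 3, a fit with no treatment covariate 78 and 9 (4 proximal list genes higher, 2 distal list genes lower), the smooth muscle score 19 and 5 (3 distal list genes lower), and Gata4 as a continuous measure 13 and 3 (1 distal list gene lower). All 4 genes were among those of the first 3 fits and 3 among those of the last. A cutoff of 1 FPKM and a cutoff of 5 FPKM gave 0 higher genes (437 and 922 of either direction at an unadjusted p under 0.05), as did Control mice only (661), Low PAC mice only (482) and Control with Low PAC mice (687), while Low PAC with High PAC mice gave 1. Leaving out each mouse in turn gave 0 (without High PAC mouse 2) to 16 (without Low PAC mouse 3) higher genes, and 0 lower genes, 0 proximal list genes higher and 0 distal list genes lower throughout. The other scalings, filters and thresholds gave 3 to 6 higher genes. Mouse numbers shared between treatments were not shown to pair the mice: deviations of 15 same-numbered pairs correlated at a mean r of 0.0497 (-0.307 to 0.445), against -0.0122 for other pairs, and 2 of 15 mice correlated best with their own number. With a replicate block 0 genes were higher (589 at an unadjusted p under 0.05). In these cases the cause was not tested, and the subsets also held fewer mice.

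Of the 75 tested genes given with values or names, 54 kept the sign of their log2 fold change under every alternative run. The sign reversed, with the values given, in Control mice only for S100g (0.37), Slc28a2 (0.10), Nos2 (0.97), Hbb-bt (0.47), Fabp1 (0.13), Fgf15 (-0.25) and Cdx2 (0.25), and in Low PAC mice only for Tshr (-0.011), Igfbp6 (-0.42), B3galt2 (-0.18), Rspo1 (-0.59), Xlr3b (-0.11), Msln (-0.66), Fabp6 (0.15) and Gata5 (-0.072). Control with Low PAC mice reversed Slc28a2 (0.011), Igfbp6 (-0.26), Rspo1 (-0.50), Xlr3b (-0.24), Msln (-0.49) and Gata5 (-0.017), and Low PAC with High PAC mice reversed Gata5 (-0.017). A cutoff of 1 FPKM reversed Barx2 (-0.33), Fabp1 (0.32), Cdx2 (0.051) and Hnf4a (0.019), and a cutoff of 5 FPKM Slc28a2 (0.14), Nos2 (0.12), Sh3bgr (0.26), Xlr3b (-1.36), Hbb-bt (0.33), Cartpt (0.067), Fgf15 (-0.18), Gata5 (-0.078), Cdx2 (0.0012), Xdh (-0.019) and Gzmb (-0.10). With no covariate Slc28a2 (0.58), Nos2 (0.44), Tshr (-0.0063), Igfbp6 (-0.28), B3galt2 (-0.0062), Rspo1 (-0.17), Xlr3b (-0.31), Msln (-0.38) and Hnf4a (0.079) reversed, and with the replicate block Igfbp6 (-0.36), Rspo1 (-0.18), Msln (-0.36) and Hnf4a (0.026). The continuous measure reversed Slc28a2 (0.0042), Sh3bgr (0.0204), Xlr3b (-0.064) and Cdx2 (0.0095), the smooth muscle score Sh3bgr (0.059), Xlr3b (-0.0055) and Fgf15 (-0.032), and the B cell score Slc28a2 (0.0054). Of the other scales, voom reversed Slc28a2 (0.022), Igfbp6 (-0.031), Msln (-0.27) and Fabp1 (0.012), log2(FPKM + 0.1) Slc28a2 (0.032), Igfbp6 (-0.17), Rspo1 (-0.044) and Msln (-0.34), log2(FPKM + 1) Slc28a2 (0.031), Igfbp6 (-0.061) and Msln (-0.071), the upper quartile Msln (-0.0026) and DESeq2 Msln (-0.013). Leaving out 1 mouse at a time gave ranges across 0 for Cdx2 (-0.17 to 0.037), Fabp1 (-0.36 to 0.10), Gata5 (-0.027 to 0.092), Hnf4a (-0.061 to 0.045), Igfbp6 (-0.25 to 0.23), Msln (-0.49 to 0.30), Rspo1 (-0.49 to 0.44), Sh3bgr (-0.41 to 0.017), Slc28a2 (-0.085 to 0.14) and Xlr3b (-0.22 to 0.25).

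At this depth Gata4 itself rests on 23 to 742 expected counts, and 1 lone mouse in 2 of the 6 combinations of set and treatment limits every adjusted comparison. Intestinal position was not measured, so position and Gata4 level cannot be told apart.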

Other observations

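Genes of antimicrobial defence, in which epithelial lectins and serum amyloid proteins act against gut bacteria, held 5 of 13 members lower and 0 higher in Gata4-high mice at an unadjusted p under 0.05 (adjusted: 0 and 0), with a median log2 fold change of -0.95, and without Low PAC mouse 2 the count was also 5. Over all genes tested 1.38% were lower and 2.63% higher. Reg3b, a bactericidal lectin, ranged from 748 to 4226 FPKM in Gata4-high and from 1040 to 9637 FPKM in Gata4-low mice, a log2 fold change of -1.69 with an edgeR adjusted p of 0.624. Reg3g, its close relative, had a log2 fold change of -1.91, and Fut2, which fucosylates the epithelial surface, had -1.47. Without Low PAC mouse 2 the log2 fold changes were -1.09 for Reg3b, -1.05 for Reg3g and -0.92 for Fut2, and without a treatment covariate they were -0.57, -0.67 and -1.18. Reg3b and Fut2 were picked after their values were seen. The highest level of Reg3b, Reg3g, Saa1 and Fut2 was in Low PAC mouse 2 and the next highest of Reg3b, Reg3g, Saa1 and Fut2 was in Control mouse 2. Reg3b and Reg3g are similar genes in 1 cluster, so shared reads are possible.

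Of 13 gut hormone genes tested, 0 had an unadjusted p under 0.05 in edgeR's test (0 to 1 higher and 0 to 2 lower when 1 mouse was left out, with 2 lower without Control mouse 1, Low PAC mouse 4 or High PAC mouse 3) and the median log2 fold change was -0.06. Markers of T cells were above 0 in 7 of 7 (median 0.18), and Gzmb, a protease of cytotoxic lymphocytes, was at 5.93 to 11.7 FPKM against 2.81 to 7.30 FPKM, a log2 fold change of 0.81 with an edgeR adjusted p of 0.531.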
